A study of Homo sapiens with 6 samples.

Results

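A set of 9 transcription factors that steer blood progenitors towards granulocyte, monocyte or dendritic cell fates were followed across 3 groups of a human leukaemia cell line. These were SPI1 (encoding PU.1), GFI1, IRF8, IRF4, KLF4, KLF2, KLF6, MITF and ZEB2, taken by name, 9 of 60612 gene identifiers in the count tables. Of these, 6 factors were among the 15395 genes with enough reads to test, and IRF4, KLF4 and KLF2 were not. The cells were KO52, an established acute myeloid leukaemia line described by the labels as a double mutant for CEBPA, the gene of the transcription factor C/EBPα. RNA was sequenced from cells carrying a doxycycline-inducible lentiviral vector (pCW57.1) with no peptide insert (EV), with a dominant-negative C/EBP peptide (dnCEBP) or with a dominant-negative FOS peptide (dnFOS), 2 libraries each. The peptides pair with C/EBP or AP-1 family proteins and keep them off DNA. All groups shared the line, the vector backbone, doxycycline and, per the study's methods, sorting for GFP. One line was used, the induction time for these RNA samples is not given in the sources used here, and nothing in the labels says whether the 2 libraries of a group came from separate cultures, so p-values measure the spread between these libraries, which may be technical.

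PU.1 is an ETS factor that at high levels favours monocytes and at lower levels permits other myeloid fates. GFI1 is a zinc finger repressor that favours neutrophil fate and works with corepressors such as the LSD1 complex, and it and PU.1 are known to oppose each other. IRF8 and IRF4 act with PU.1 in monocytes and dendritic cells, KLF4 and KLF2 are zinc finger factors of monocytes and resting cells, KLF6 takes part in macrophage activation, MITF directs mast cells and melanocytes, and ZEB2 is a repressor needed for several myeloid and dendritic lineages.

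Because the peptides act on proteins that bind C/EBP and AP-1 motifs, the windows upstream of the factors' transcription starts were searched for them on both strands. The RefSeq promoter table (GRCh38.p14) gave 13 windows of 250 bases before to 50 bases after a start, for 8 of the 9 factors, and SPI1 was not matched. The C/EBP motif TTGCNNAA was in 1 of the 13 windows and in 10.5% of all 35116 promoters of that length, and the cAMP response element TGACGTCA was in 1 of 13 and in 1.85%. The AP-1 motif TGANTCA (7.71% of all promoters), the C/EBP and AP-1 composite TGANGCAA (3.22%) and the PU.1 motif GAGGAAGT (2.59%) were in 0 of 13. The searched letters can overlap between motifs, and a match is a match of letters only. The 2 windows that held a match are shown up to the last base before an annotated exon, with the match in capitals. The GFI1 window lies at chr1:92486100-92486349 on the minus strand, upstream of a start at 92486099 and inside an intron of 1 longer GFI1 transcript, with the match at -142 to -135 from the start. The MITF window lies at chr3:69936342-69936586 on the plus strand, upstream of a start at 69936592 and inside introns of 9 longer MITF transcripts, with the match at -152 to -145.
GFI1: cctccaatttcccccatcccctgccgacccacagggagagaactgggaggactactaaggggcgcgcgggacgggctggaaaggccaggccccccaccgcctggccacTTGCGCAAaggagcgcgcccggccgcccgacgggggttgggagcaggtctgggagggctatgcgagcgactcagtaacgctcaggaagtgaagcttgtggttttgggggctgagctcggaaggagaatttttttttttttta
MITF: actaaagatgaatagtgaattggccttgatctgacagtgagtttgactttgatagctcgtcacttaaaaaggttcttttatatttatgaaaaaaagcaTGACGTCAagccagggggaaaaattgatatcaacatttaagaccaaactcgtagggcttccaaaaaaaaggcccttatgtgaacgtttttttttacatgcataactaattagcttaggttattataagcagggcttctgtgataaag

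Library totals ran from 9862994 reads (dnFOS replicate 2) to 27663179 (dnCEBP replicate 1), and both dnFOS libraries, at 14583615 and 9862994, were shallower than the other 4 (21681121 or more). Levels are given as CPM, read counts brought to a common library size scaled by edgeR's TMM method, where 3 counts correspond to 0.111 to 0.29 CPM. Replicates spread beyond counting error, with chi-square values per degree of freedom of 7.99 (EV), 9.01 (dnCEBP) and 14.0 (dnFOS). Of the myeloid blast markers, CD34 (114 to 154 CPM), CD33 (54.7 to 64.1 CPM) and KIT (13.1 to 16.8 CPM) were measured in all 6 libraries, whereas FLT3 had 0 to 4 counts. The monocyte marker CD14 (0 to 6 counts) and the neutrophil granule gene ELANE (0 to 9 counts) were near 0. In bulk RNA, fewer cells of a type and less RNA per cell cannot be told apart.

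Per kilobase of annotated exon, the factors in EV cells were ordered GFI1, SPI1, ZEB2, KLF6, MITF and IRF8, while KLF2, KLF4 and IRF4 lay near the floor of 3 counts. Among these low factors, KLF2 (0.0208 and 0.181 CPM per kb) and KLF4 (0.0459 and 0.0375) overlapped in EV, and the order of the 3 was not resolved. Mean levels in EV were 15.8 ± 0.497 CPM per kb for GFI1 (SD, n = 2), 12.0 ± 1.44 for SPI1, 6.6 ± 0.0672 for ZEB2 and 3.46 ± 0.0586 for KLF6. MITF followed at 1.07 ± 0.0678 CPM per kb and IRF8 at 0.804 ± 0.23, and the libraries of these neighbours lay close together, at 1.02 and 1.12 for MITF against 0.642 and 0.967 for IRF8. The means of the 6 higher factors kept this order by exon length in dnCEBP and dnFOS cells, but some neighbours overlapped. The libraries of SPI1 and ZEB2 did so in dnCEBP (9.17 and 5.6 against 6.37 and 6.71) and in dnFOS cells (9.25 and 7.66 against 6.58 and 7.76), and those of MITF (0.925 and 1.08) and IRF8 (0.984 and 0.993) in dnFOS cells. The place of ZEB2 depended on the length used, since its annotated exons sum to 25058 bases over 48 transcripts and its longest transcript has 9583. Per kilobase of the longest transcript GFI1, SPI1 and ZEB2 were at 18.3, 17.8 and 17.3 CPM per kb in EV, and ZEB2 came first in the other groups. By that length IRF8 (mean 1.68 CPM per kb) also came above MITF (1.49) in dnFOS cells, the reverse of their order by exon length.

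**Figure D1:**
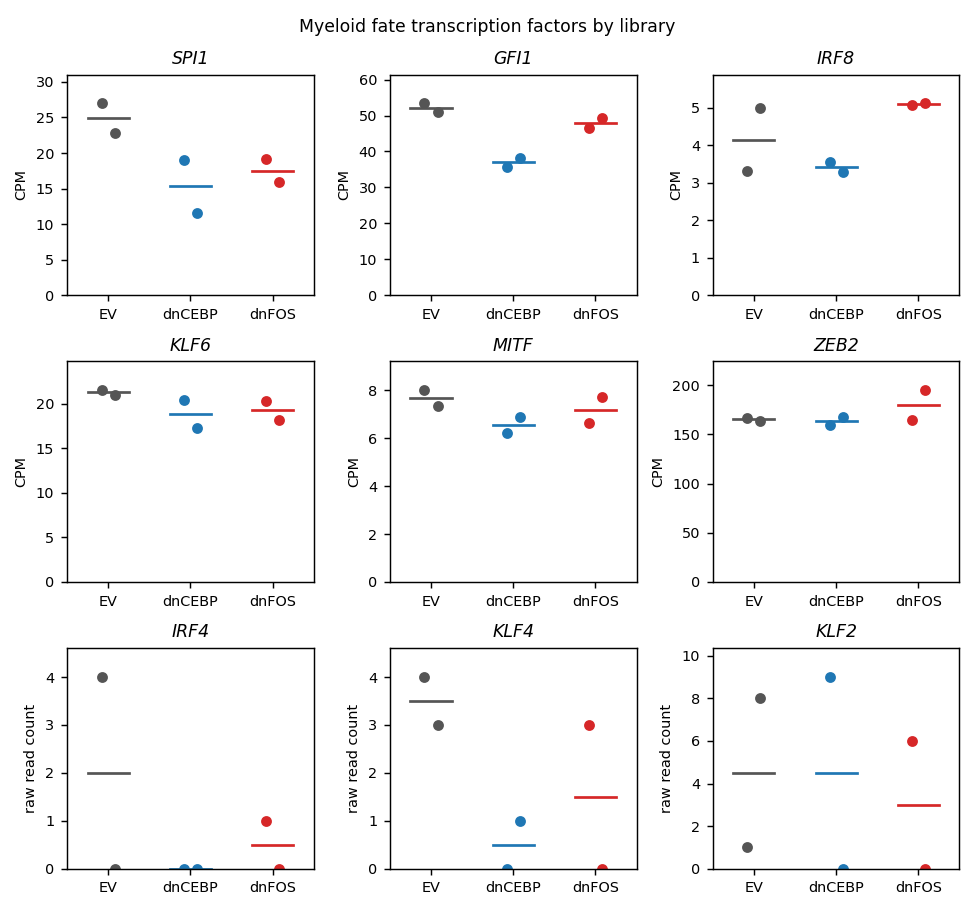
Level of each factor in every library (points) with the group mean (lines), as CPM from 0 for the 6 tested factors and as raw read counts for IRF4, KLF4 and KLF2. Both dnCEBP libraries of GFI1, at 35.7 and 38.3 CPM, sit below all other libraries.

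The first comparison asked what blocking C/EBP binding did to these factors. GFI1 (ENSG00000162676, chr1:92474762-92486876, minus strand) was the 1 of 6 tested factors that passed the threshold, an adjusted p under 0.05 by edgeR's quasi-likelihood test with Benjamini-Hochberg adjustment over all 15395 genes, where 1.07% of all tested genes passed and 0.448% passed as lower. The EV libraries stood at 53.4 and 51.0 CPM, the dnCEBP libraries at 35.7 and 38.3 and the dnFOS libraries at 46.6 and 49.3, from raw counts of 1272 and 1115, 964 and 794, and 715 and 510. Both dnCEBP libraries lay below the other 4. GFI1 fell by 0.50 ± 0.10 on the log2 scale in dnCEBP cells (SE; 95% interval -0.71 to -0.29), to 0.708 of the EV level, with an adjusted p of 0.00926 by edgeR's quasi-likelihood test. The call held in 9 of 9 other settings that kept all libraries (adjusted p 0.000399 to 0.0104) and the difference stayed between -0.55 and -0.45 with any library left out. With only 1 library left in a compared group the call was lost, at an adjusted p of 0.125 without EV replicate 1, 0.0603 without EV replicate 2, 0.0716 without dnCEBP replicate 1 and 0.0638 without dnCEBP replicate 2.

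GFI1B, the paralog of GFI1 used in red cell and megakaryocyte precursors, went the other way. Its EV libraries held 21.3 and 22.9 CPM, its dnCEBP libraries 34.7 and 30.4 and its dnFOS libraries 19.5 and 16.3, so its dnCEBP libraries were the highest 2 of 6. It rose by 0.56 ± 0.13 on the log2 scale in dnCEBP cells (edgeR adjusted p = 0.0196). As with GFI1, this call was lost when any EV or dnCEBP library was left out, with adjusted p of 0.203 and 0.0944 without EV replicates 1 and 2 and 0.131 and 0.055 without dnCEBP replicates 1 and 2. Within each library, GFI1B made up 28.5% and 31.0% of the summed counts of GFI1 and GFI1B for EV, 49.3% and 44.2% for dnCEBP, and 29.6% and 24.9% for dnFOS. The exact (Clopper-Pearson) 95% intervals, which cover counting error only, were 47.0 to 51.6% and 41.6 to 46.9% in dnCEBP and reached no higher than 33.3% in the other 4 libraries. This share restates the differences of GFI1 and GFI1B given above and is not separate evidence for them. It does not depend on how libraries were scaled, though it depends on the lengths of the transcripts.

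**Figure D2:**
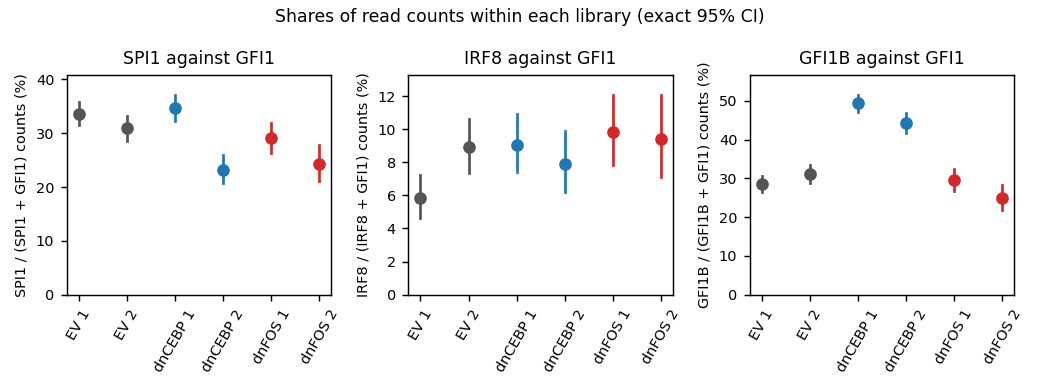
Share of read counts of SPI1, IRF8 or GFI1B (percent of that gene plus GFI1) in each library, with exact 95% intervals for counting error. GFI1B took 44.2% and 49.3% in the dnCEBP libraries and no more than 31.0% in the others, whereas the SPI1 share was 34.7% in dnCEBP replicate 1 and 23.2% in dnCEBP replicate 2.

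SPI1 (ENSG00000066336, chr11:47354860-47378576, minus strand) reached 27.0 and 22.8 CPM with EV, 19.0 and 11.6 with dnCEBP, and 19.1 and 15.9 with dnFOS. Both EV libraries lay above all 4 peptide libraries, and dnCEBP replicate 2 was the lowest. The log2 difference was -0.69 ± 0.18 in dnCEBP cells (95% interval -1.06 to -0.32), larger than that of GFI1, but the dnCEBP libraries lay far apart and it did not pass (edgeR adjusted p = 0.0671, unadjusted p = 0.000868). It passed with no filter on low counts (0.000456), by limma-voom (0.0367) and after removal of the trend with GC and length (-0.52, 0.0326). That trend bears on SPI1 because its annotated transcripts, at 64.3% GC when pooled, are richer in GC than those of 96.7% of tested genes. SPI1 was higher in replicate 1 than in replicate 2 of every group, and whether the numbers pair libraries is not settled here. With the replicate numbers as a block the difference also passed (-0.72, adjusted p 9.4e-05). In the other 5 settings that kept all libraries it did not pass (adjusted p 0.0555 to 0.0913), nor without EV replicate 1 (0.29) or EV replicate 2 (0.0922). Without dnCEBP replicate 2 the difference was -0.39 (adjusted p 0.75) and without dnCEBP replicate 1 it was -1.10 (0.000822), so its size turned on which dnCEBP library was used. Leaving out dnFOS replicate 1 or 2, which enter only through the shared spread, gave 0.0414 and 0.0439.

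**Figure D3:**
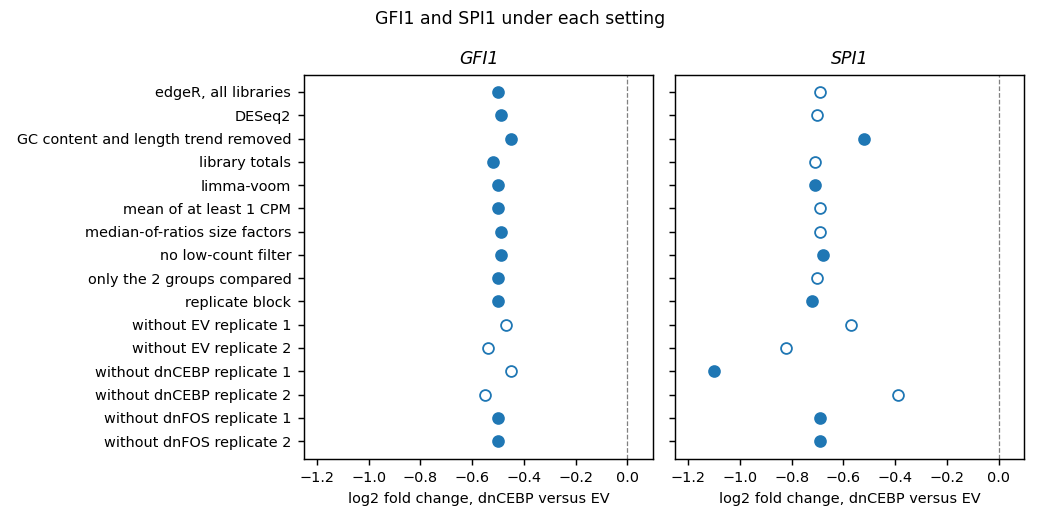
Log2 difference between dnCEBP and EV for GFI1 and SPI1 under the main edgeR test and each other setting, with filled points for an adjusted p under 0.05. GFI1 ran from -0.55 to -0.45 and SPI1 from -1.10 to -0.39.

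The other 4 tested factors did not pass in dnCEBP cells. KLF6 (ENSG00000067082, chr10:3775996-3785281) reached 21.5 and 21.0 CPM with EV, 20.4 and 17.3 with dnCEBP and 20.3 and 18.2 with dnFOS. The log2 difference of KLF6 between dnCEBP and EV was -0.17 ± 0.13 (95% interval -0.45 to 0.10, edgeR adjusted p = 0.662). MITF (ENSG00000187098, chr3:69739435-69968337) measured 8.01 and 7.33 CPM with EV, 6.22 and 6.90 with dnCEBP and 6.64 and 7.73 with dnFOS. Its log2 difference in dnCEBP cells was -0.23 ± 0.19 (-0.62 to 0.16, edgeR adjusted p = 0.691). For both, the EV libraries lay above the dnCEBP libraries, but the intervals included 0. In all, 4 of the 6 tested factors did not overlap between EV and dnCEBP, all 4 lower in dnCEBP, and 20.9% of all tested genes did so, while the median log2 difference was -0.25 over the 6 factors and 0.00 over all genes.

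ZEB2 (ENSG00000169554, chr2:144364364-144524583) had the narrowest interval of the 6. Its libraries held 167 and 164 CPM with EV, 160 and 168 with dnCEBP, and 165 and 195 with dnFOS, and the EV and dnCEBP libraries overlapped. The log2 difference was -0.01 ± 0.09 in dnCEBP cells (95% interval -0.19 to 0.17, edgeR adjusted p = 0.974), so a change of more than 0.19 in either direction lay outside it. The antisense gene ZEB2-AS1 shares 1299 exon bases with ZEB2 on the other strand and had 1 to 6 counts, and whether counting used strand is not given in the sources used here.

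IRF8 (ENSG00000140968, chr16:85898803-85922609) was a low-level factor, at 3.31 and 4.99 CPM with EV, 3.55 and 3.28 with dnCEBP, and 5.08 and 5.12 with dnFOS. The EV libraries spread over the range of the others, and the log2 difference between dnCEBP and EV was -0.27 ± 0.25 (-0.78 to 0.24, edgeR adjusted p = 0.728). Between EV and dnFOS cells it was 0.30 ± 0.26 (-0.23 to 0.83, edgeR adjusted p = 0.486), but 0.03 without EV replicate 1 and 0.61 without EV replicate 2. Both dnFOS libraries lay above both dnCEBP libraries, a difference of 0.57 ± 0.26 (0.04 to 1.11) that had an unadjusted p of 0.0357 and an edgeR adjusted p of 0.147.

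IRF4, KLF4 and KLF2 were close to absent. IRF4 (ENSG00000137265, chr6:391739-411447) had raw counts of 4 and 0 with EV, 0 and 0 with dnCEBP, and 1 and 0 with dnFOS. KLF4 (ENSG00000136826, chr9:107484852-107490482) had 4 and 3, 0 and 1, and 3 and 0 counts. KLF2 (ENSG00000127528, chr19:16324817-16327874) had 1 and 8, 9 and 0, and 6 and 0. Most of these counts were at or under the floor of 3, the replicates of KLF2 disagreed in every group, and no difference was detectable at this depth, nor did any pass when fitted with no filter on low counts (smallest edgeR adjusted p 0.816).

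**Figure D4:**
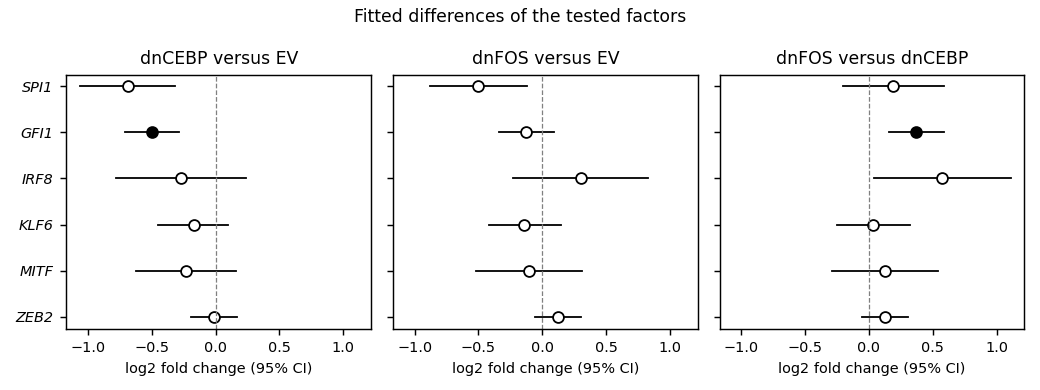
Log2 difference of the 6 tested factors in each comparison with 95% intervals, filled points marking an adjusted p under 0.05. GFI1 is the filled point in dnCEBP against EV (-0.50) and in dnFOS against dnCEBP (0.37), and dnFOS against EV has none.

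The second comparison asked what blocking AP-1 binding did, with the same EV libraries as controls. No tested factor passed, 0 of 6 by edgeR and 0 by DESeq2 and limma-voom, against 15.0% of all tested genes by edgeR, and 1 of 6, SPI1, had an unadjusted p under 0.05. SPI1 was lower by 0.50 ± 0.18 on the log2 scale (95% interval -0.88 to -0.12), with an edgeR adjusted p of 0.0733. It passed with no filter on low counts (0.00861), with only the 2 groups in the fit (0.0126), with the replicate numbers as a block (-0.52, adjusted p 0.00307) and without dnCEBP replicate 1 (0.0167) or 2 (0.0149). Once the trend with GC and length was removed, the difference was -0.21 (adjusted p 0.358), and in the other 5 settings with all libraries the adjusted p was 0.0623 to 0.167. It did not pass without EV replicate 1 (0.31), EV replicate 2 (0.0596), dnFOS replicate 1 (0.0729) or dnFOS replicate 2 (0.373). GFI1 was at -0.13 ± 0.10 (-0.34 to 0.09, edgeR adjusted p = 0.471), KLF6 at -0.14 ± 0.14 (-0.42 to 0.15, 0.565), MITF at -0.10 ± 0.20 (-0.52 to 0.31, 0.786) and ZEB2 at 0.12 ± 0.09 (-0.06 to 0.30, 0.414). In 3 factors, SPI1, GFI1 and KLF6, both dnFOS libraries lay below both EV libraries (28.4% of all tested genes) and in IRF8 both lay above (28.3%). Over the 6 factors the median log2 difference was -0.11, and it was 0.00 over all genes.

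Set directly against each other, the 2 peptides differed in GFI1, which was higher in dnFOS than in dnCEBP cells by 0.37 ± 0.11 on the log2 scale (95% interval 0.16 to 0.59, edgeR adjusted p = 0.0154). That was 1 of 6 tested factors, where 14.7% of all tested genes passed and 6.83% passed as higher. The call held in 9 of 9 other settings with all libraries (adjusted p 0.000851 to 0.0287) but was lost without dnCEBP replicate 1 (0.32, 0.134) or dnFOS replicate 2 (0.33, 0.0848). GFI1 and IRF8 did not overlap between these groups, both higher in dnFOS, as did 28.6% of all tested genes. SPI1 differed by 0.19 ± 0.19 (-0.20 to 0.59, edgeR adjusted p = 0.562), but by 0.60 (0.0392) without dnCEBP replicate 1 and -0.11 (0.772) without dnCEBP replicate 2. KLF6 differed by 0.03 ± 0.14 (-0.25 to 0.32), MITF by 0.13 ± 0.20 (-0.29 to 0.54) and ZEB2 by 0.13 ± 0.09 (-0.05 to 0.31), with edgeR adjusted p of 0.917, 0.751 and 0.364. ZEB2 passed with raw library totals in place of scaled ones (0.25, adjusted p 0.0408), a scaling that moved the median of all genes to 0.14 from 0.02.

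The relatives of the factors were 28 other KLF, IRF, MiT, SPI, GFI and ZEB family genes, of which 21 were tested. Among all tested genes, 1.07% passed in dnCEBP and 15.0% in dnFOS against EV, and 14.7% between the peptides. GFI1B was the 1 that passed in dnCEBP cells, and 1, TFEC of the MITF family, passed in dnFOS cells. TFEC rose by 0.45 ± 0.10 (edgeR adjusted p = 0.00162), but was at -0.10 (0.402) after removal of the trend with GC and length and lost the call without dnFOS replicate 2 (0.29, 0.0881). None of the 9 tested KLF relatives and none of the 7 IRF relatives passed against EV with either peptide, with smallest edgeR adjusted p of 0.375 and 0.401 in dnCEBP and 0.203 and 0.0746 in dnFOS. At an unadjusted p under 0.05 these counts were 1 and 1 in dnCEBP and 0 and 1 in dnFOS, and 0 passed by DESeq2 or limma-voom. Between the peptides 5 relatives passed, and they are named here after their values were seen: GFI1B (-0.85), IRF2 (-0.52) and IRF7 (-0.56) were lower and TFEC (0.44) and KLF3 (0.50) higher in dnFOS, of which the GFI1B call alone held without each single library. Of 7 corepressors that partner these factors, none passed in dnCEBP cells by edgeR, DESeq2 or limma-voom (1 at an unadjusted p under 0.05), and CTBP2 passed in dnFOS cells (0.31, edgeR adjusted p = 0.044), a call lost in 4 of the other settings and without EV replicate 1, EV replicate 2 or dnFOS replicate 2 (0.147, 0.242 and 0.232).

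Genes that textbook accounts place under the control of these factors were counted in the same way. Beside the counts of every target list stand the shares of all tested genes that passed, 1.07% in dnCEBP and 15.0% in dnFOS cells. Of 13 tested PU.1 targets, 1 passed in dnCEBP cells, CSF3R, the receptor for granulocyte colony-stimulating factor. Its level was 92.1 and 83.4 CPM with EV, 65.6 and 58.6 with dnCEBP and 113 and 97.7 with dnFOS. CSF3R fell by 0.50 ± 0.09 on the log2 scale (edgeR adjusted p = 0.00421), a call lost without EV replicate 1 (-0.42, 0.0891) or dnCEBP replicate 2 (-0.42, 0.183). In dnFOS cells 4 of the 13 passed, and 2 without EV replicate 1: the integrin ITGAM rose by 0.91 ± 0.15 (edgeR adjusted p = 8.66e-05), and the adaptor TYROBP (-0.45, 0.00339), the kinase FES (-0.40, 0.0203) and the integrin ITGB2 (-0.31, 0.0307) fell. ITGAM and ITGB2, which together form the receptor CR3, went in opposite directions. The TYROBP, FES and ITGB2 calls were lost after removal of the trend with GC and length (0.131, 0.234 and 0.315). Those of FES and ITGB2 were also lost with library totals (0.0997 and 0.156), without EV replicate 1 (0.174 and 0.363) and without dnFOS replicate 2 (0.266 and 0.278).

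Of 8 tested IRF8 targets, CIITA, the activator of MHC class II genes, passed in dnCEBP cells, where it fell by 0.48 (edgeR adjusted p = 0.0404). It lost the call in 3 of the other settings and without EV replicate 2 (0.378) or dnCEBP replicate 2 (0.537), and none of the 8 passed in dnFOS cells. After removal of the trend with GC and length, 2 of the 8 passed in dnFOS cells, and the list median went from 0.086 to -0.059. Of 7 tested genes known to be repressed by GFI1, none passed in dnCEBP cells, where GFI1 fell, and their median log2 difference was 0.14. In dnFOS cells 4 of the 7 passed: CDKN1A, an inhibitor of the cell cycle, fell by 1.5 ± 0.4 (edgeR adjusted p = 0.0104), the immediate early genes EGR2 (-1.03, 0.0462) and EGR1 (-0.87, 0.000879) fell, and HOXA9, a leukaemia-associated homeobox gene, rose by 0.52 (0.00137). CDKN1A lost its call without dnFOS replicate 1 (-1.03, 0.175), where 2 of the 7 passed, and EGR2 lost its call with any library left out (0.054 to 0.213) and in 5 other settings.

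Among 5 tested KLF2 targets none passed in dnCEBP cells and 3 fell in dnFOS cells (1 without dnFOS replicate 1), although KLF2 itself had almost no reads. They were CDKN1A, the integrin ITGB7 (-0.62, edgeR adjusted p = 0.0014) and the sphingosine receptor S1PR1, with 25 and 17 reads in the EV libraries against 2 and 2 in those of dnFOS (edgeR adjusted p = 0.0348, lost without EV replicate 1 and without either dnFOS library, at 0.163, 0.188 and 0.125). The ratio of S1PR1 in EV to dnFOS was 5.91, with an interval of 2.14 to 22.7 for counting error. The S1PR1 call was also lost by limma-voom (adjusted p 0.0748), and DESeq2 gave it no adjusted p. By each of these methods 2 of the 5 KLF2 targets passed in dnFOS cells. Of 5 tested MITF targets none passed in dnCEBP cells and BCL2A1, a survival gene, fell in dnFOS cells by 0.89 (edgeR adjusted p = 3.07e-05), while the pigment genes MLANA, TYR and TRPM1 were at 0 in every library. Where no gene of a target list passed by edgeR, none had an unadjusted p under 0.05 either, and none passed by DESeq2 or limma-voom. CDKN1A, EGR1, EGR2 and CYBB are among the genes that stand in more than 1 of these lists.

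**Figure D5:**
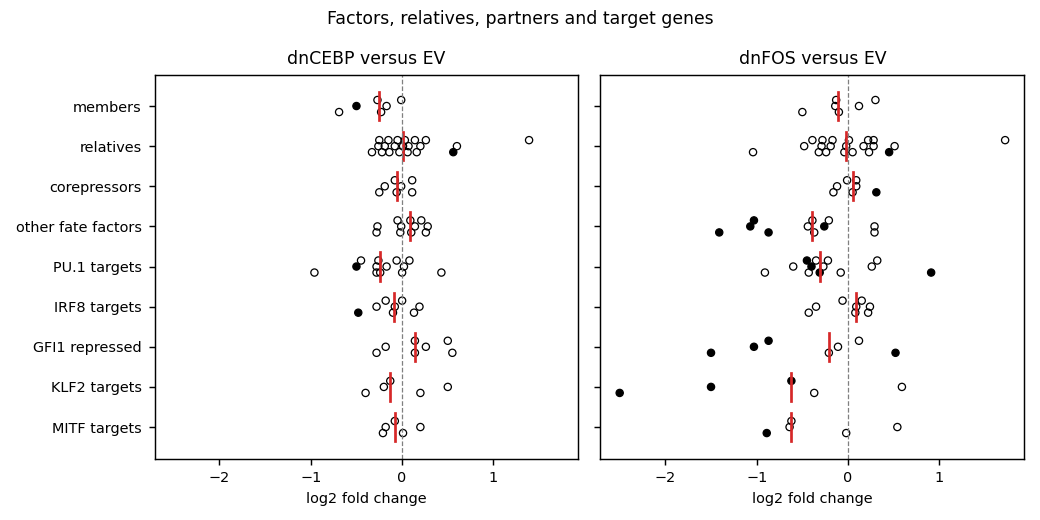
Log2 difference of every tested gene in each list (points, filled for an adjusted p under 0.05) with the list median (bars), for dnCEBP and dnFOS against the same EV libraries. In dnCEBP the median is -0.25 for the 9 listed factors (6 tested) and 0.01 for their relatives.

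Other lineage factors form the surroundings of the 9. Of 14 such factors 11 were tested, and none passed in dnCEBP cells by edgeR, DESeq2 or limma-voom (1 at an unadjusted p under 0.05, median log2 difference 0.09). In dnFOS cells 5 fell, 3 without EV replicate 1, dnFOS replicate 1 or dnFOS replicate 2, and the median was -0.39. The erythroid and mast cell factor GATA1 held 7.64 and 6.13 CPM with EV, 7.62 and 8.35 with dnCEBP and 2.34 and 2.90 with dnFOS, and it fell by 1.41 ± 0.25 in dnFOS cells (edgeR adjusted p = 0.000214). NR4A1, an immediate early nuclear receptor, fell by 1.07 ± 0.16 (2.46e-05), and the other 3 were EGR2, EGR1 and GATA2 (-0.26, 0.0493). GATA2 lost its call in 4 other settings, reaching -0.01 (0.925) after removal of the trend with GC and length, and without EV replicate 1, dnFOS replicate 1 or dnFOS replicate 2 (0.425, 0.0896 and 0.124). In that comparison 15.0% of all tested genes passed and no tested member of the 9 did. Whether the 9 differ from these other lineage factors was not tested.

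Summed marker levels differed between the groups, and the part of the markers in the values of the factors was not tested. The summed level of 9 granulocyte markers ran from 9.52 to 9.57 CPM with EV, 3.89 to 4.44 with dnCEBP and 2.87 to 3.09 with dnFOS, with MMP8 and FCGR3B at 0 in every library. Only 5 of the 9 were tested, and all 5 were lower than in EV with each peptide. By edgeR 1 passed in dnCEBP and 4 in dnFOS cells, against 1.07% and 15.0% of all tested genes. By limma-voom 1 and 3 passed, and by DESeq2 0 in both. MPO, the granule enzyme that marks myeloid blasts, fell by 1.89 ± 0.10 in dnCEBP cells (edgeR adjusted p = 5.03e-13) and by 0.56 ± 0.10 in dnFOS cells (0.000273). All 5 tested blast markers were lower in dnFOS cells, the lowest at -0.58, and 2 of the 5 passed by edgeR, MPO included. Of the 5 tested blast markers ANPEP also passed in dnCEBP (-0.37, 0.0254, lost without EV replicate 1, EV replicate 2 or dnCEBP replicate 2 at 0.274, 0.0934 and 0.589), while CD34 (0.15), KIT (0.01) and CD33 (-0.12) did not. The summed level of 7 mast cell, basophil and eosinophil markers ran from 423 to 442 CPM with EV, 523 to 535 with dnCEBP and 185 to 209 with dnFOS. That sum was carried by HDC and CPA3: of the 6 tested, CPA3 rose (0.63, edgeR adjusted p = 0.000163) and CLC fell (-1.16, 0.00183) in dnCEBP cells, 3 were higher and 3 lower, and the median log2 difference was -0.04. The summed level of 8 monocyte markers was 83.8 to 87.0, 71.1 to 80.4 and 58.2 to 67.0 CPM in the 3 groups. Only 5 of the 8 were tested, and against EV 1 was higher and 4 lower with each peptide. None passed in dnCEBP cells by edgeR, DESeq2 or limma-voom (1 at an unadjusted p under 0.05), with a median log2 difference of -0.17. In dnFOS cells 2 passed by edgeR and 1 each by DESeq2 and limma-voom, with a median of -0.91.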

How the data were processed

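The authors deposited one table of raw read counts per gene for each of the 6 libraries. Per the labels, total RNA was depleted of ribosomal RNA, amplified with 15 PCR cycles and sequenced as 75-base read pairs. The submitters' processing notes name Trimmomatic, HISAT2, featureCounts, Subread and hg38; versions, annotation and strand use are not given in the sources used here. Identifiers were matched to GENCODE 29 (58394 of 60612), whose gene coordinates on GRCh38 are printed. From the counts, genes were kept by filterByExpr (minimum count 10), scaled by TMM and fitted over all 3 groups with edgeR 4.0.16 in R 4.3.3 (quasi-likelihood test, 3 residual degrees of freedom, Benjamini-Hochberg adjustment over 15395 genes, threshold 0.05). The code was tested on simulated data. Alternatives used limma 3.58.1, DESeq2 1.42.0, other scalings and filters, a GC and length trend (mgcv 1.9.3), a replicate block and leaving out each library. The factors and the 16 gene lists were chosen with earlier results of these data known. All 9 factors are named; from each list at most the 3 called genes with the largest difference from EV, and for each called factor the 3 protein-coding genes of at least 5 CPM nearest in pattern. ITGB2, HOXA9, GATA2, KLF3, IRF2, IRF7 and some marker genes were named after their values were seen. The values of a few list genes are not reported here. Depth ran from 9862994 to 27663179 counts. With 2 libraries a group an exact permutation test could not go below p = 0.333, so no single value was tested that way.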

Additional observations from a re-analysis of the deposited data

How the results depend on the processing

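The number of genes called between dnCEBP and EV was 165 and became 255 with no low-count filter, 297 with only the 2 groups compared, 252 once the trend with GC and length was removed and 488 with the replicate block; leaving out 1 library gave 33 to 314. Factors called in that comparison went from 1 to 2 with no low-count filter, limma-voom, the replicate block or removal of that trend, and ranged from 0 to 2 with a library left out. Between dnFOS and EV, 2309 genes were called (972 to 2426 with a library left out), and the factors called went from 0 to 1 with no low-count filter, only the 2 groups compared or the replicate block, and ranged from 0 to 1. Between dnFOS and dnCEBP, 2259 genes were called (1182 to 2262), and the factors called went from 1 to 2 with library totals and ranged from 0 to 1. The direction turned with a library left out for IRF8 (-0.542 to 0.041) and ZEB2 (-0.051 to 0.023) in dnCEBP against EV, for GFI1 (0.004) and ZEB2 (-0.062) in dnFOS against EV and ZEB2 in dnFOS against dnCEBP (-0.009) after removal of that trend, and with a library left out for MITF (-0.208 to 0.011) and ZEB2 (-0.005 to 0.234) in dnFOS against EV and for SPI1 (-0.107 to 0.605) and KLF6 (-0.075 to 0.157) in dnFOS against dnCEBP; none of these differences was called by edgeR's test on scaled sizes with all libraries, and that of ZEB2 between the peptides was called with library totals. The causes were not tested.

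Whether the replicate numbers pair the libraries is not settled here. Deviations of same-numbered libraries correlated weakly over all genes, at 0.0174, 0.0281 and 0.0879, all positive. All 6 libraries correlated better with their own number than with the other, which with 2 libraries a group follows from those signs. With the numbers as a block, the genes called rose to 488 in dnCEBP and 3172 in dnFOS against EV, and to 3013 between the peptides. With 2 libraries a group, and shallower ones in dnFOS, calls for single factors rest on few degrees of freedom, and IRF4, KLF4 and KLF2 were left out by the filter on low counts and were not called without it.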

Other observations

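By the rule on likeness of pattern, the protein-coding genes whose levels followed those of GFI1 most closely over the 6 libraries, among 9482 candidates, were CAT, KCNE3 and SERPINA1, with root mean square differences of 0.057, 0.0638 and 0.0641 on the log2 scale. CAT, the enzyme catalase, reached 451 and 418 CPM with EV, 276 and 297 with dnCEBP and 400 and 401 with dnFOS. KCNE3, a potassium channel subunit, was at 34.6 and 35.9, 23.3 and 26.3, and 34.1 and 32.5 CPM, and SERPINA1, a protease inhibitor, at 28.3 and 28.8, 20.8 and 20.1, and 24.5 and 25.4 CPM. The 6 libraries share 3 groups, so the likeness is a description.

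The remaining marker lists gave these summed levels. The 7 dendritic cell markers summed to 100 to 106 CPM with EV, 92.6 to 101 with dnCEBP and 86.6 to 89.0 with dnFOS, with XCR1, CLEC10A and CLEC4C at 0. Only 2 dendritic markers were tested, and in dnFOS against EV 1 was higher (2.01) and 1 lower (-0.24). Neither passed by edgeR, and their median was 0.88, so the sum does not stand for the list. The 4 erythroid markers summed to 2.01 to 2.38, 2.7 to 3.0 and 0.677 to 2.34 CPM. The 4 megakaryocyte markers summed to 183 to 195, 201 to 238 and 102 to 113 CPM. Only 2 of them were tested. In dnFOS against EV, ITGA2B was lower (-0.83) and passed by edgeR, the other was higher (0.73), and the median was -0.05. The 6 lymphoid markers summed to 146 to 154, 169 to 174 and 113 to 129 CPM, with MS4A1 at 0; CD3D carried that sum (0.30 in dnCEBP against EV, edgeR adjusted p = 0.0962), while the other 2 tested, NKG7 (-0.28) and CD79A (-0.30), were lower and the median was -0.28. The 6 myeloid blast markers summed to 579 to 638, 399 to 439 and 439 to 477 CPM. Of the 5 tested, 2 were higher and 3 lower in dnCEBP against EV. MPO had the largest fall there (-1.89) and the median was -0.12, so this sum does not stand for the list.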
